A study of Homo sapiens with 12 samples.

Results

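Most messenger RNAs get their 3′ end when a large protein machine cuts the nascent transcript and a poly(A) polymerase adds a tail to the cut end. The machine consists of 4 sub-complexes, and 10 of their genes are described here: CPSF1, CPSF2 and CPSF3 of the cleavage and polyadenylation specificity factor (CPSF), CSTF1, CSTF2 and CSTF3 of the cleavage stimulation factor (CstF), NUDT21 and CPSF6 of cleavage factor I (CFIm), and PCF11 and CLP1 of cleavage factor II (CFIIm). They were chosen by name, and each of the 10 was found as 1 row among the 23621 genes of each cell line's table. All 10 were among the 14251 active genes, taken as genes above 1 FPKM in at least 1 library, and the test below was fitted to all of those.

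The libraries are 12 in number, from KURAMOCHI (Ku) and COV362 (Cov) cells, established human ovarian cancer lines. Cells of each line were exposed for 6 h to the vehicle DMSO, to 50 nM THZ1 or to 250 nM THZ1, with 2 libraries per condition and no other agent. THZ1 is a covalent inhibitor of CDK7 that also binds CDK12 and CDK13, kinases that phosphorylate the tail of RNA polymerase II, and PCF11 is known to bind that phosphorylated tail. The labels do not say whether the 2 libraries of a condition came from separate cultures, so the p-values measure the spread between these libraries, which may be technical. Each line stands for 1 tumour, and DMSO libraries of a line serve both doses.

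Poly(A) RNA was sequenced, and the values are FPKM, read fragments scaled by transcript length and library size, which the authors had scaled to synthetic ERCC spike-in RNAs added to RNA normalized by cell count. A value therefore stands for mRNA per cell rather than for a share of the library. The depth is unknown. The median of the active genes was 10.9 to 12.8 FPKM in Ku DMSO libraries and 2.84 to 3.13 at 250 nM, and 13.4 to 14.4 against 3.27 to 3.32 in Cov libraries, so nearly every comparison below is set against a general fall. The lowest value that any of the 10 genes had was 0.399 FPKM, above the lowest values in the tables, which lie between 0.0783 and 0.119. PAX8, a marker of Müllerian-type ovarian carcinoma, was at 120 to 140 FPKM in the DMSO libraries of both lines, and the epithelial keratins KRT8 and KRT18 were at 744 to 2490. The other 3 epithelial carcinoma markers differed between the lines. WT1 was at 53.4 to 60.1 in Ku but at 0.565 to 0.741 in Cov cells, EPCAM at 4.01 to 4.24 against 150 to 174, and KRT7 at 4.54 to 4.68 against 1290 to 1420. Of 8 markers of leukocytes, endothelium and fibroblasts, VWF reached 2.97 FPKM in Ku cells and COL1A1 2.59 and 3.20 in Ku and Cov cells, and the other 6 stayed below 1.

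The reaction starts from the hexamer AAUAAA near the transcript's end, which CPSF recognises through CPSF4 and WDR33. CSTF2 binds the GU-rich stretch downstream of the cut, NUDT21 binds UGUA upstream of it, and CPSF3 cuts between them. The mRNAs of these factors are themselves products of the reaction. In the GRCh37 sequence, which shares its coordinates with hg19, 9 of the 10 genes hold AATAAA on the transcript strand within the last 40 bases of the annotated main transcript (GENCODE, lifted to this build), and CPSF1 holds neither AATAAA nor ATTAAA there. Among 12007 active genes with such a transcript, 65.9% hold AATAAA, 15.1% hold ATTAAA without AATAAA, and 19.0% hold neither. The last 30 bases of 5 of the genes are shown because these 5 include the 3 that fell furthest and a pair that kept much of its mRNA. All lie in the 3′ UTR of the last exon, and capitals mark the hexamer.
PCF11, chr11:82896807-82896836, plus strand: atacatgtAATAAAtagaatgatgaagaaa
CSTF1, chr20:54981389-54981418, plus strand: gatttctgaAATAAActttatatacaatga
CLP1, chr11:57429308-57429337, plus strand: cattttAATAAAtatttttgccatatcata
CPSF6, chr12:69668109-69668138, plus strand: tattgaaAATAAAacaaacttttgataaga
NUDT21, chr16:56463045-56463074, minus strand: tcatttcAATAAAaaatatttgaaagagaa
The hexamer starts 21 to 24 bases from the transcript's end in all 5 genes. The 5 were picked by their falls, and CPSF1, which holds neither hexamer, kept 51.6% and 57.6% of its mRNA at 250 nM in Ku and Cov cells, so nothing is read from the hexamer about the size of a fall.

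At 250 nM THZ1 all 10 mRNAs fell in both lines on the spike-in scale, but very unequally, and without that scale 7 of the 10 turned upward in at least 1 line. PCF11, CSTF1 and CLP1 retained 2.63% to 7.56% of their DMSO level, CPSF2, CPSF3, CSTF2 and CSTF3 retained 14.7% to 35.4%, and CPSF1, CPSF6 and NUDT21 retained 40.01% to 57.6%. Changes are differences in mean log2(FPKM + 1), tested two-sided with limma in each line, and a call needed both a Benjamini-Hochberg adjusted p under 0.001 and a change of more than 0.5 in either direction. With 250 nM, 10 of 10 were called lower in Ku cells, as were 68.6% of active genes. The Cov count was also 10 of 10, beside 84% of active genes, and none was called higher (0.0491% and 0.105% of active genes were). Both treated libraries lay below both DMSO libraries for all 10 in each line, as for 95.9% of active genes in Ku and 95.6% in Cov cells. Their median log2 fold change was -1.55 in Ku and -1.81 in Cov cells, against -1.11 and -1.31 for all active genes. A call was thus the rule for an active gene, and what set the 10 apart from one another was the size of the fall. In bulk RNA, a fall in every cell and a larger fall in some of the cells cannot be told apart. Without 1 library, CPSF6 lost its call in Ku cells (left out was DMSO replicate 1, 250 nM replicate 1 or 250 nM replicate 2) and CPSF1 in Cov cells (without DMSO replicate 2).

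The direction of the smaller falls rests on the spike-in scale. With libraries scaled to an equal median FPKM of active genes instead, or by median of ratios, PCF11, CSTF1 and CLP1 were still called lower at 250 nM in both lines, with log2 fold changes of -1.61 to -3.40, whereas CPSF1, CPSF6 and NUDT21 turned to higher values in both lines. Of these 3, all were called higher in both lines under equal-median scaling, where 3920 of the 14251 active genes were in Ku and 3811 in Cov cells, and median-of-ratios scaling left CPSF6 called higher for Cov. Equal-median scaling also turned CPSF2 in Ku cells, CSTF3 in Cov cells, and CPSF3 and CSTF2 in both lines. CSTF3 stayed called lower in Ku cells at -0.76 and -1.27. The 2 scalings moved the median log2 fold change of all active genes at 250 nM to 0.34 and -0.0011 in Ku and to 0.38 and 0.013 in Cov cells. Falls are therefore given below as amounts per cell on the spike-in scale, with the share of active genes that fell further for the largest.

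**Figure D1:**
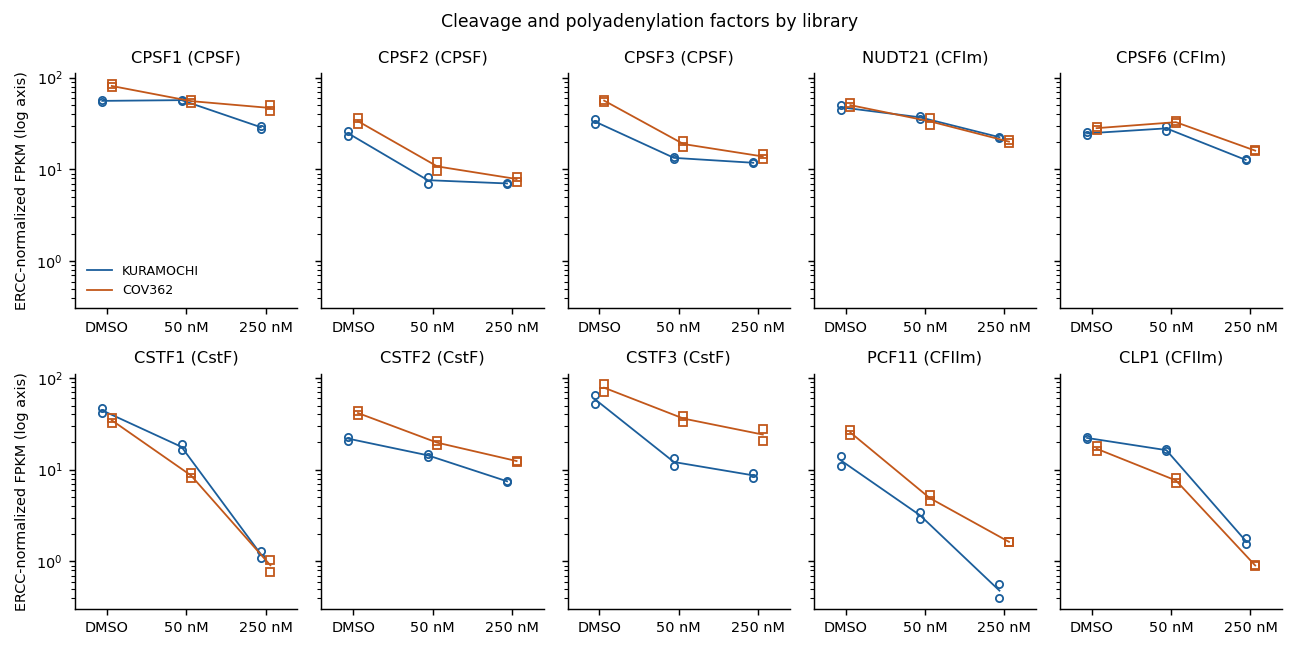
FPKM of the 10 factors in every library, on a log axis. Each point is 1 library (circles, Ku; squares, Cov) and lines join the means of 2 libraries; CSTF1, PCF11 and CLP1 drop the most between DMSO and 250 nM, while CPSF1, CPSF6 and NUDT21 keep 40.01% to 57.6% on this spike-in scale, a fall that turns to a rise for these 3 under either other scaling.

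In CFIIm both genes dropped steeply, by different routes. PCF11, the scaffold of CFIIm that bridges it to RNA polymerase II and aids termination, had 14.2 and 11.04 FPKM in the Ku DMSO libraries, 3.45 and 2.90 at 50 nM, and 0.399 and 0.563 at 250 nM. In Cov cells the values were 24.1 and 26.8, then 4.52 and 5.30, then 1.65 and 1.62. No condition overlapped another in either line. The log2 fold changes against DMSO were -1.70 ± 0.17 (SE) and -3.19 ± 0.17 at 50 and 250 nM for Ku (limma adjusted p = 0.000701 and 1.48e-05), and -2.16 ± 0.11 and -3.33 ± 0.11 in Cov cells (adjusted p = 2.13e-05 and 8.16e-07). On the FPKM scale PCF11 was 26.3-fold lower at 250 nM in Ku and 15.6-fold lower in Cov cells, and 2.66% and 1.46% of active genes fell further on the log2 scale. The step from 50 to 250 nM was also called, at -1.495 and -1.16 (limma adjusted p = 0.000455 and 0.000179).

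CLP1, an RNA kinase that is also part of the tRNA splicing endonuclease complex, kept more of its mRNA than PCF11 at the lower dose. It had 22.6 and 21.7 FPKM in Ku DMSO libraries and 16.7 and 15.9 at 50 nM, a difference that was not called (log2 fold change -0.42 ± 0.11, limma adjusted p = 0.0188), and 1.81 and 1.54 at 250 nM. The Cov values went from 15.9 and 17.9 to 7.22 and 8.05 and then to 0.887 and 0.921. The 250 nM libraries lay far below all others in both lines, and the 50 nM change was called in Cov cells (-1.05, limma adjusted p = 8.86e-05). The log2 fold change at 250 nM was -3.12 in Ku and -3.23 in Cov cells (limma adjusted p = 7.03e-06 and 8.16e-07), and that from 50 to 250 nM was -2.70 and -2.18 (adjusted p = 4.21e-05 and 3.59e-05).

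CstF contained both the largest fall and 2 moderate ones. CSTF1, the WD-repeat subunit of CstF, had 47.4 and 41.1 FPKM in Ku DMSO libraries, 19.0 and 16.5 at 50 nM, and 1.31 and 1.09 at 250 nM. The Cov values were 32.4 and 36.8, then 8.17 and 9.12, then 1.05 and 0.768. Again no condition overlapped another. At 250 nM 2.71% of the DMSO level was left in Ku and 2.63% in Cov cells, the log2 fold changes were -4.36 ± 0.13 and -4.22 ± 0.12 (limma adjusted p = 6.52e-06 and 8.16e-07), and 0.421% and 0.295% of active genes fell further. At 50 nM the log2 fold change was -1.27 in Ku and -1.88 in Cov cells (limma adjusted p = 0.00074 and 2.34e-05).

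CSTF2, the subunit that contacts the GU-rich RNA, had 22.8 and 20.8 FPKM in Ku DMSO libraries, 14.9 and 13.7 at 50 nM and 7.41 and 7.54 at 250 nM. The corresponding Cov values were 39.1 and 43.8, then 18.8 and 20.6, then 12.3 and 12.6. Its 2 libraries lay close together at every dose, and each dose lay below the one before. The 250 nM change was -1.42 in Ku and -1.66 in Cov cells, where it left 34.3% and 29.98% of the DMSO level (limma adjusted p = 3.16e-05 and 2.73e-06). At 50 nM it was called in Cov cells at -1.04 (limma adjusted p = 5.99e-05) and not in Ku cells, at -0.57 (adjusted p = 0.00434).

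CSTF3, the scaffold that holds CSTF1 and CSTF2, was among the most abundant factors in DMSO, with 65.3 and 52.5 FPKM in Ku and 71.0 and 85.4 in Cov libraries. At 50 nM it had 13.3 and 10.9 in Ku and 33.5 and 38.7 in Cov cells, and at 250 nM 8.04 and 9.30 in Ku and 27.8 and 20.5 in Cov cells. Most of its loss was thus in place at the lower dose. The log2 fold changes in Ku cells were -2.19 and -2.63 (limma adjusted p = 0.000338 and 1.85e-05), and in Cov cells -1.09 and -1.67 (adjusted p = 0.000496 and 3.55e-05). Whether the lines differed was not tested, because their tables had been normalized separately.

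In CPSF, CPSF2 and CPSF3 had most of their loss at 50 nM, and CPSF1 kept more of its mRNA. CPSF3, the endonuclease that makes the cut, had 35.3 and 31.3 FPKM in Ku DMSO libraries, 13.7 and 13.04 at 50 nM and 11.95 and 11.7 at 250 nM, and in Cov cells 54.8 and 57.5, 17.4 and 20.4, and 14.8 and 12.8. CPSF2, its relative without catalytic activity, had 26.1 and 23.2, 8.30 and 6.96, and 7.01 and 7.04 in Ku cells, and 31.1 and 36.0, 9.61 and 11.9, and 8.36 and 7.35 in Cov cells. For both genes the 50 nM libraries already lay close to the 250 nM libraries. At 50 nM the log2 fold changes of CPSF2 and CPSF3 were -1.57 and -1.26 in Ku cells (limma adjusted p = 0.000401 and 0.000369) and -1.56 and -1.53 in Cov cells (adjusted p = 4.67e-05 and 2.98e-05). The further step to 250 nM was not called for either gene in either line, at -0.10 and -0.16 in Ku cells (limma adjusted p = 0.48 and 0.155) and -0.41 and -0.42 in Cov cells (adjusted p = 0.0331 and 0.0149). Without the spike-in scale this step was called higher in Ku cells for both, at 1.10 and 1.06 under equal-median and 0.74 and 0.69 under median-of-ratios scaling. At 250 nM 28.5% of CPSF2 and 35.4% of CPSF3 was left in Ku cells, and 23.4% and 24.6% in Cov cells.

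CPSF1, the large scaffold subunit, had 57.3 and 54.3 FPKM in Ku DMSO libraries and 56.3 and 57.4 at 50 nM, overlapping ranges with a log2 fold change of 0.027 ± 0.068 (limma adjusted p = 0.754), and 27.8 and 29.8 at 250 nM. In Cov cells it had 78.1 and 84.2, then 57.8 and 53.2, then 43.1 and 50.3. The 50 nM difference in Cov cells, -0.54, missed the threshold (limma adjusted p = 0.0017), although both libraries lay below both DMSO libraries. At 250 nM CPSF1 was lower by -0.93 in Ku and -0.79 in Cov cells on the log2 scale (limma adjusted p = 3.98e-05 and 0.000181).

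In CFIm, CPSF6 stood above its DMSO level at 50 nM, and NUDT21 lay below its own at both doses. CPSF6, the RS-domain subunit of CFIm, had 25.5 and 23.9 FPKM in Ku DMSO libraries, 29.6 and 26.4 at 50 nM and 12.9 and 12.5 at 250 nM, and in Cov cells 27.1 and 29.2, 32.0 and 33.4, and 16.3 and 15.7. Both 50 nM libraries lay above both DMSO libraries in both lines, at 113% and 116% of the DMSO mean, but this was not called (log2 fold change 0.17, limma adjusted p = 0.146 in Ku; 0.21, adjusted p = 0.0468 in Cov). Under equal-median and median-of-ratios scaling CPSF6 was called higher at 50 nM in Cov cells, at 1.41 and 1.22 (limma adjusted p = 0.000545 and 0.000554). In Cov cells 99.1% of active genes had a lower fold change at that dose. At 250 nM the log2 fold change was -0.91 in Ku and -0.78 in Cov cells (limma adjusted p = 0.000132 and 6.43e-05).

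NUDT21, the UGUA-binding subunit, had 50.3 and 44.7 FPKM in Ku DMSO libraries, 38.5 and 35.3 at 50 nM and 22.1 and 22.8 at 250 nM, and in Cov cells 47.7 and 52.6, 30.6 and 36.3, and 20.8 and 19.3. The doses did not overlap, and the 50 nM differences of -0.35 and -0.57 were not called (limma adjusted p = 0.0156 and 0.00168). At 250 nM the log2 fold change was -1.05 in Ku and -1.28 in Cov cells (limma adjusted p = 6.29e-05 and 1.7e-05). The annotated exons of NUDT21 share 2178 bases on the same strand with the model ENSG00000288725, so reads of the 2 could not be told apart, and exons of PCF11 and CSTF3 overlap antisense exons of PCF11-AS1 and TCP11L1 by 274 and 249 bases. PCF11 exons also overlap antisense exons of ANKRD42-DT by 175 bases. Exons of CPSF1 overlap ADCK5 (antisense) and MIR939 (same strand) by 12 bases each. The kit keeps strand, but the strand setting used in counting was not given in the sources used here.

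**Figure D2:**
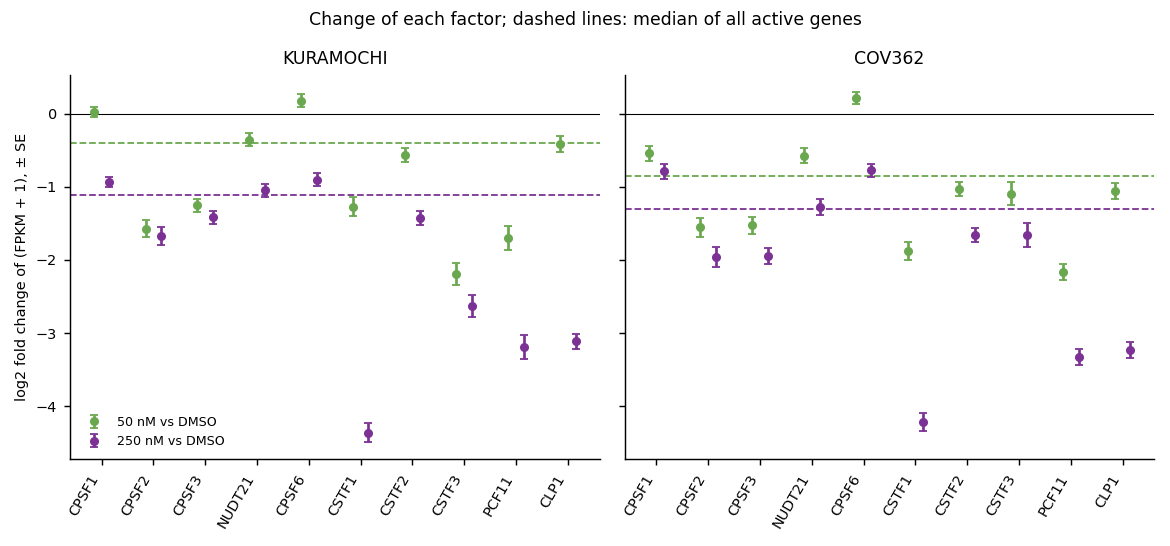
Log2 fold change of (FPKM + 1) of each factor at 50 nM and 250 nM against DMSO in Ku (left) and Cov cells (right), on the spike-in scale; bars are standard errors from limma with 2 libraries a group, and dashed lines are the medians of all active genes. CSTF1, PCF11 and CLP1 lie far below the 250 nM median and CPSF1, CPSF6 and NUDT21 above it in both lines; scaling without spike-ins keeps the former 3 lower at 250 nM and turns the latter 3 to higher values.

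The dose at which the mRNA was lost differed between the factors. At 50 nM, 5 of the 10 were called lower in Ku cells (PCF11, CPSF2, CPSF3, CSTF1 and CSTF3), where 11.3% of active genes were called lower, and 7 in Cov cells (these 5, CSTF2 and CLP1), where 70.5% were. None was called higher, as were 0.0842% and 0.0772% of active genes. Both 50 nM libraries lay below both DMSO libraries for 8 of the 10 in Ku cells, all but CPSF1 and CPSF6 (75.8% of active genes), and for 9 in Cov cells, all but CPSF6 (95.7%). The median log2 fold change of the 10 was -0.91 in Ku and -1.07 in Cov cells, against -0.40 and -0.85 for all active genes. The Ku calls rest on all 6 libraries, and their adjusted p lay between 0.000338 and 0.00074. They did not hold once any single Ku library was left out, which leaves 1 library in a group. Nearly all calls among active genes were lost in those fits too. The lowest and highest log2 fold changes without 1 library stayed at -1.87 and -1.53 for PCF11 and at -2.34 and -2.03 for CSTF3. In Ku cells 1 of the 10 (CSTF3) was called lower under equal-median scaling and 2 (CSTF3 and CPSF2) under median-of-ratios scaling, and in Cov cells 0 and 1 (PCF11). Of the 14251 active genes, these scalings left 78 and 356 called lower in Ku and 19 and 81 in Cov cells. Equal-median scaling turned 5 of the 10 upward at 50 nM in Cov cells, namely CPSF1 to 0.67, NUDT21 to 0.63, CSTF2 to 0.15, CSTF3 to 0.11 and CLP1 to 0.072, and NUDT21, CLP1 and CSTF2 in Ku cells to 0.34, 0.25 and 0.10. None of these was called.

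Of the FPKM lost at 250 nM, the part already lost at 50 nM was 96.6% in Ku and 88.6% in Cov cells for CPSF2, 92.8% and 88.1% for CPSF3, 93.1% and 77.9% for CSTF3, and 77.8% and 86.2% for PCF11. For CLP1 it was 28.6% and 58.0%, and for NUDT21 42.2% and 55.5%. CSTF1, at 61.6% and 77.0%, and CSTF2, at 51.9% and 75.0%, lay between these. For CPSF6 no part had been lost in either line. CPSF1 had lost none in Ku cells and 74.5% in Cov cells. Between 50 and 250 nM, 7 of the 10 were called lower in Ku cells (all but CPSF2, CPSF3 and CSTF3), where 36% of active genes were, and 4 in Cov cells (PCF11, CPSF6, CSTF1 and CLP1), where 24.4% were, with 0.0421% and 0.0842% called higher. Both 250 nM libraries lay below both 50 nM libraries for 9 of the 10 in Ku cells, all but CPSF2 (87.7% of active genes), and for all 10 in Cov cells (75.6%). Of the 7 in Ku cells, CPSF1, CPSF6, CSTF2 and NUDT21 turned to higher values under equal-median scaling, and NUDT21 under median-of-ratios scaling too. Most of the 7 Ku calls were lost without either 50 nM library or either 250 nM library, which leaves 1 library in a group, and so were most calls over active genes.

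The range of the 10 levels widened with dose. In DMSO the most abundant of the 10 exceeded the least abundant 4.67-fold in Ku and 4.79-fold in Cov cells in mean FPKM, a measure per length of transcript. At 50 nM the range was 17.9-fold and 11.3-fold, and at 250 nM 59.9-fold and 51.7-fold. In Ku cells the DMSO order ran from CSTF3 (58.9) and CPSF1 (55.8), whose libraries overlapped, through NUDT21, CSTF1, CPSF3, CPSF6, CPSF2, CLP1 and CSTF2 to PCF11 (12.6). NUDT21 overlapped with CSTF1, CPSF6 with CPSF2, and CLP1 with CSTF2. At 250 nM no neighbours in the Ku order overlapped, CPSF1 (28.8) and NUDT21 (22.4) led, and CLP1 (1.68), CSTF1 (1.20) and PCF11 (0.481) closed it. In Cov cells CPSF1 (81.1) and CSTF3 (78.2) led in DMSO with overlapping libraries, CPSF1 (46.7) led alone at 250 nM, and PCF11 (1.64), CSTF1 (0.909) and CLP1 (0.904) were last, the latter 2 overlapping.

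Ratios of 2 genes within a library do not depend on how libraries were scaled. Of the 8 pairs within a sub-complex, all 8 had ratios at 50 nM and at 250 nM outside the range of the DMSO ratios in Ku cells, and for Cov this held for 6 pairs. An exact permutation test (two-sided) of 2 libraries against 2 has a smallest p of 0.33, so the ratios are given as values. How often other pairs of active genes differ in this way was not computed, and nothing is read from the count. CSTF1 over CSTF2 was 2.08 and 1.98 in Ku DMSO libraries, 1.27 and 1.20 at 50 nM and 0.177 and 0.144 at 250 nM. In Cov cells it was 0.827 and 0.841, then 0.434 and 0.443, then 0.0855 and 0.0610. CSTF1 was thus above CSTF2 in Ku and below it in Cov cells in DMSO, and a small part of it at 250 nM in both. The log2 change at 250 nM was -3.67 in Ku and -3.53 in Cov cells. The SD of the log2 ratio within a condition (n = 2), the larger of DMSO and 250 nM, was 0.20 and 0.34.

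CPSF1 over CPSF2 rose from 2.20 and 2.34 to 6.78 and 8.25 at 50 nM in Ku cells and was 3.97 and 4.23 at 250 nM. In Cov cells it was 2.51 and 2.34, then 6.01 and 4.46, then 5.15 and 6.85. All THZ1 libraries lay above all DMSO libraries. CPSF2 over CPSF3, in contrast, was 0.568 and 0.626 in Cov DMSO libraries and 0.563 and 0.573 at 250 nM, an overlap, and 0.738 and 0.741 against 0.587 and 0.604 in Ku cells. In Ku cells it was also below the DMSO ratios at 50 nM, at 0.607 and 0.534. The log2 change of CPSF2 over CPSF3 at 250 nM was -0.31 in Ku and -0.068 in Cov cells, beside 0.85 and 1.29 for CPSF1 over CPSF2.

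CPSF6 over NUDT21 was 0.507 and 0.534 in Ku DMSO libraries, 0.769 and 0.747 at 50 nM and 0.582 and 0.551 at 250 nM, and in Cov cells 0.567 and 0.556, 1.05 and 0.921, and 0.782 and 0.815. The ratio was highest at 50 nM in both lines. PCF11 over CLP1 was lowest at 50 nM in both lines: 0.628 and 0.508, then 0.207 and 0.182, then 0.220 and 0.365 in Ku cells, and 1.51 and 1.49, then 0.627 and 0.659, then 1.86 and 1.76 in Cov cells. Its Cov value at 250 nM, a log2 change of 0.27, became -0.0923 when 1 was added to each FPKM, since CLP1 was below 1 FPKM there. CSTF2 over CSTF3 was 0.349 and 0.396 in Ku DMSO libraries against 1.12 and 1.26 at 50 nM, and 0.551 and 0.513 against 0.562 and 0.532 in Cov cells, where it overlapped.

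**Figure D3:**
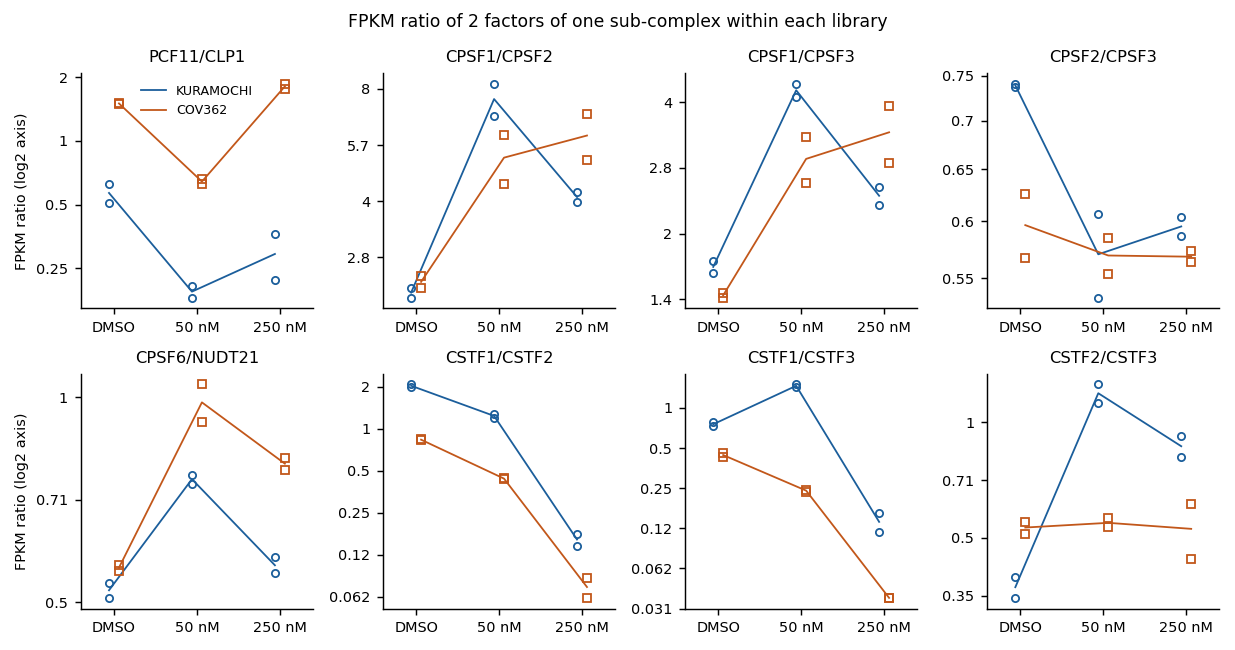
Ratio of the FPKM of 2 factors of the same sub-complex within each library, on log2 axes with a separate range per panel. Points are libraries (circles, Ku; squares, Cov) and lines join means of 2; CSTF1 over CSTF2 falls to between 0.0610 and 0.177 at 250 nM in both lines, CPSF6 over NUDT21 peaks at 50 nM, and CPSF2 over CPSF3 in Cov cells overlaps between conditions.

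Among 28 other genes of 3′ end formation, chosen by name, the counts called lower at 50 nM were 9 for Ku and 27 for Cov, and 27 and 28 at 250 nM, beside 11.3%, 70.5%, 68.6% and 84% of active genes in the same order. The 15 other cleavage and polyadenylation genes had medians of -0.76 and -1.90 in Ku and -1.19 and -2.46 in Cov cells at 50 and 250 nM, and 6, 15, 14 and 15 of them were called lower. Most Ku calls of the 28 at 50 nM were lost when any 1 library was left out. Many of their Cov calls at 50 nM were lost without either DMSO replicate. Calls over all active genes were lost in the same fits, which leave 1 library in a group. Scaling without spike-ins left 8 and 14 of the 28 called lower at 250 nM in Ku cells, and 12 and 16 in Cov cells. Of the 14251 active genes they left 1683 and 2748 called lower in Ku, and 1619 and 2694 in Cov cells.

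PPP1R10, the PP1-binding subunit of the phosphatase module that joins the machine, had the largest fall of the 28. It had 29.1 and 26.4 FPKM in Ku DMSO libraries, 0.808 and 0.626 at 50 nM and 0.230 and 0.317 at 250 nM, and in Cov cells 25.6 and 28.4, 1.21 and 1.07, and 0.469 and 0.552. Nearly all of it was gone at the lower dose, at 2.59% and 4.22% of the DMSO level (log2 fold change -4.06 and -3.71, limma adjusted p = 0.000139 and 5.11e-06). WDR82, its partner in the module, was at 32.8% and 31.6% at 50 nM and at 7.32% and 8.88% at 250 nM, whereas the catalytic subunit PPP1CA kept 53.0% and 52.0% at 250 nM. SSU72, a phosphatase of the polymerase tail that works with SYMPK, had nearly its whole fall at 50 nM, to 32.3% and 43.0%, with 37.9% and 42.2% at 250 nM.

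CSTF2T, an intronless autosomal relative of CSTF2, kept less of its mRNA than CSTF2, a difference between genes that was not tested. It had 11.7 and 9.79 FPKM in Ku DMSO libraries and 0.484 and 0.611 at 250 nM, and 18.7 and 20.0 against 1.20 and 0.938 in Cov cells. That left 5.10% and 5.51%, against 34.3% and 29.98% of CSTF2. Their log2 fold changes were -2.92 and -3.30 for CSTF2T (limma adjusted p = 1.4e-05 and 8.16e-07) and -1.42 and -1.66 for CSTF2. Reads from stretches that the copies share could have been split between them, so both values are uncertain to that extent.

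Of the CPSF subunits that contact the hexamer, WDR33 was at 29.1 and 26.7 FPKM in Ku DMSO libraries, 27.6 and 25.1 at 50 nM, and 6.90 and 6.64 at 250 nM. In Cov cells it had 33.9 and 37.5, then 12.8 and 14.96, then 5.34 and 4.85. Its Ku libraries at 50 nM overlapped with DMSO (log2 fold change -0.082, limma adjusted p = 0.481). CPSF4, the zinc-finger subunit beside it, was at 24.6% and 27.5% of DMSO at 250 nM, and FIP1L1, which tethers the poly(A) polymerase, at 23.3% and 13.0%. The polymerase itself, PAPOLA, was among those with the smallest falls, at 57.2% and 42.4%, while the related PAPOLG was at 10.1% and 7.65%. CPSF7, the alternative partner of NUDT21 in CFIm, fell to 24.0% and 12.9%, beside 51.4% and 56.9% for CPSF6, whose change at this dose is upward under both other scalings.

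Histone mRNAs without a tail are cut by a related machine that shares CPSF2, CPSF3 and SYMPK, and its own 5 genes were called lower in 2 of 5 at 50 nM in Ku cells and in 5 of 5 in the other 3 comparisons with DMSO, beside 11.3% of active genes in the first and 68.6% to 84% in the others. SLBP, which binds the histone stem-loop, was at 92.0% of DMSO at 50 nM in Ku cells, not called (limma adjusted p = 0.355), and at 21.3% at 250 nM. ZNF473 kept the smallest mean share of the 5 at 250 nM, 7.08% in Ku and 5.69% in Cov cells, and CASP8AP2 kept 7.26% and 7.27%, with overlapping ranges. By log2(FPKM + 1) CASP8AP2 fell furthest of the 5, by -2.77 and -2.585 beside -2.47 and -2.09 for ZNF473. Of 8 genes of transcription termination and the polymerase tail, 1 was called lower at 50 nM in Ku cells, RPRD1A, and 8 in Cov cells, beside 11.3% and 70.5% of active genes. SCAF8 and SCAF4, which limit early polyadenylation, were at 119% and 118% of DMSO at 50 nM in Ku cells, not called (limma adjusted p = 0.117 and 0.175), and at 20.7% and 35.8% at 250 nM. XRN2, the exonuclease that follows the cut, was the single gene of the 28 not called at 250 nM in Ku cells, at 65.6% of DMSO (log2 fold change -0.60, limma adjusted p = 0.00171).

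**Figure D4:**
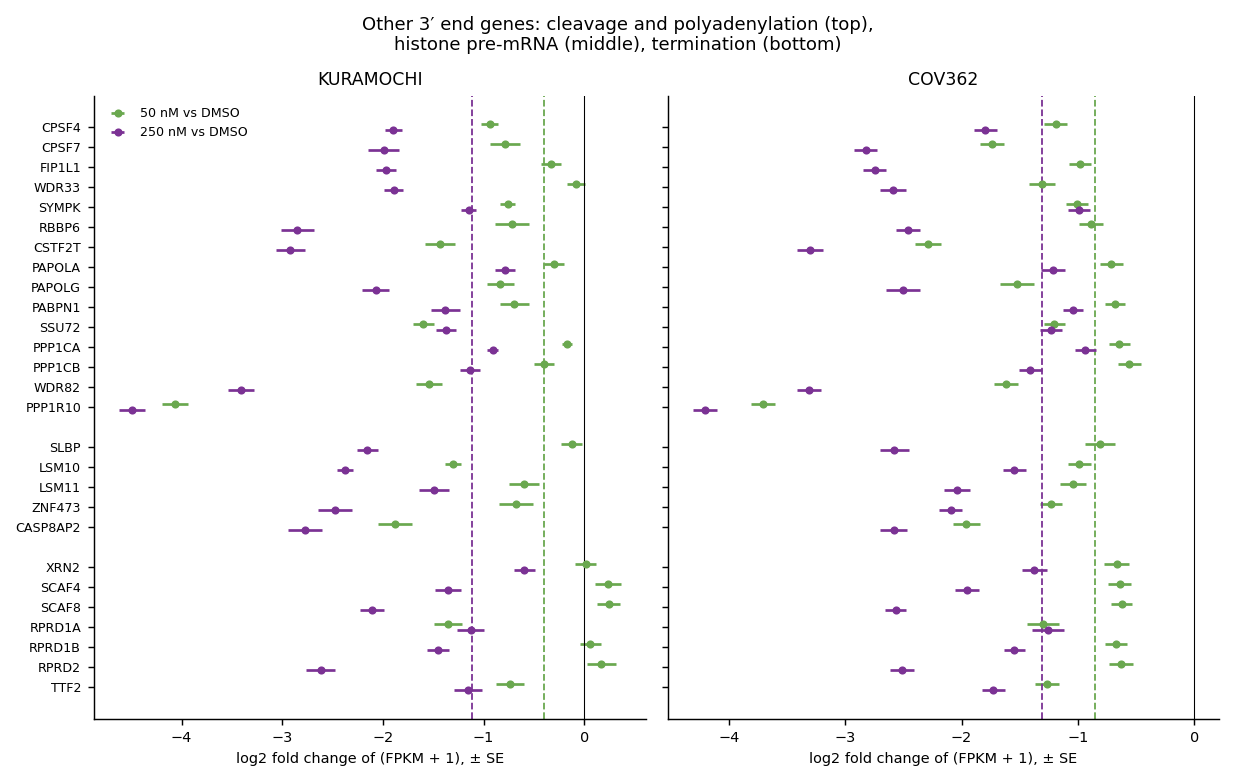
Log2 fold change of (FPKM + 1), with standard errors from limma, of 27 of the 28 other 3′ end genes at 50 nM (green) and 250 nM (purple) against DMSO, in Ku (left) and Cov cells (right) on the spike-in scale. Dashed lines are medians of all active genes; PPP1R10 lies lowest at both doses, the termination genes shown lie near 0 at 50 nM in Ku cells except RPRD1A and TTF2, and without spike-in scaling 8 to 16 of the 28 were called lower at 250 nM.

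Gene length was unlike among the 10. CLP1 spans 4.1 kb with 3 exons, CSTF1 13.7 kb with 6 and PCF11 28.7 kb with 16, and these 3 fell furthest at 250 nM, while CSTF3, the longest, spans 76.9 kb with 21 exons. CPSF2 and CPSF3 span 50.2 and 49.4 kb, CPSF6 34.8, NUDT21 22.2, CSTF2 21.1 and CPSF1 16.3. CSTF3, CPSF2, CPSF3 and PCF11, which with CPSF6 are the 5 longest, had 77.8% to 96.6% of their 250 nM loss at 50 nM in Ku cells, and CPSF6 had none. In Cov cells they had 77.9% to 88.6%, close to the 77.0%, 75.0% and 74.5% of the shorter CSTF1, CSTF2 and CPSF1. Across the 10 genes, Spearman's rho of span with log2 fold change was -0.455 at 50 nM, 0.20 at 250 nM and 0.77 between the doses in Ku cells, and -0.152, 0.188 and 0.503 in Cov cells. Over the 12007 active genes with a span it was 0.11, 0.035 and -0.034 in Ku and -0.059, -0.078 and -0.063 in Cov cells. These are descriptions across genes of the same libraries, and genes are not independent replicates.

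By the 4 log2 fold changes against DMSO in 2 lines at 2 doses, the active gene nearest to CSTF1 was AURKA, the mitotic kinase Aurora A, at a distance of 0.147 log2 units, followed by XBP1 at 0.385 and TNFRSF1A at 0.417. AURKA had 102.8 and 89.3 FPKM in Ku DMSO libraries, 42.4 and 39.999 at 50 nM and 3.80 and 3.58 at 250 nM, and in Cov cells 133.9 and 148.0, 37.4 and 43.8, and 6.38 and 6.16. Its log2 fold changes were -1.20 and -4.37 in Ku and -1.77 and -4.29 in Cov cells (limma adjusted p from 8.16e-07 to 0.000414), beside -1.27, -4.36, -1.88 and -4.22 for CSTF1. This closeness depends on the 1 added to each FPKM, because CSTF1 lay near 1 FPKM at 250 nM and AURKA above 3. With 0.1 added instead, an alternative chosen after seeing the data, the 250 nM changes were -5.10 and -5.12 for CSTF1 against -4.66 and -4.47 for AURKA, the distance was 0.81, and AURKA was no longer nearest, with ZNF627 at 0.281 in first place. As a share of DMSO, AURKA was at 3.84% in Ku and 4.45% in Cov cells at 250 nM, and all 4 of its libraries lay above those of CSTF1 in the same line. AURKA also is the gene next to it: on GRCh37 CSTF1 starts at 54967701 on the plus strand of chromosome 20, and AURKA starts 430 bases away at 54967271 on the minus strand, so the 2 are transcribed head to head. For CPSF6, which had the smallest mean fall at 250 nM by log2(FPKM + 1), the nearest were LOC401321 at 0.269, CEP85L at 0.328 and KLHL28 at 0.363, and with 0.1 added NXPH4 came first at 0.267. CPSF1 was close to CPSF6 and kept slightly more as a share of DMSO, 51.6% and 57.6% beside 51.4% and 56.9%.

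After these values were seen, the other 9 factors were searched for head-to-head neighbours with starts within 1000 bases, and 3 had one. CPSF2 and NDUFB1, a subunit of respiratory complex I, start 263 bases apart, and NDUFB1 kept more of its mRNA than CPSF2. It had 184.6 and 156.6 FPKM in Ku DMSO libraries and 138.6 and 119.9 at 250 nM, a log2 fold change of -0.40 that was not called (limma adjusted p = 0.014), and -0.89 in Cov cells (adjusted p = 0.000687). CPSF3 and ITGB1BP1 start 126 bases apart, and at 50 nM ITGB1BP1 was at -0.47 in Ku and -0.76 in Cov cells, beside -1.26 and -1.53 for CPSF3. At 250 nM it was at -1.20 and -1.11, beside -1.42 and -1.95 for CPSF3. NUDT21 and OGFOD1 start 222 bases apart, and OGFOD1 fell further at 250 nM, by -1.49 and -2.10 against -1.05 and -1.28. The distance over the 4 fold changes was 2.42, 1.40 and 1.06 for these pairs. Counting the factor itself, 11290 of the active genes were nearer to CPSF2 than NDUFB1 was, 5639 were nearer to CPSF3 than ITGB1BP1, and 7805 were nearer to NUDT21 than OGFOD1. With 0.1 added to each FPKM the 3 distances were 2.63, 1.46 and 1.20, and 10 genes, CSTF1 included, were nearer to CSTF1 than AURKA was.

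**Figure D5:**
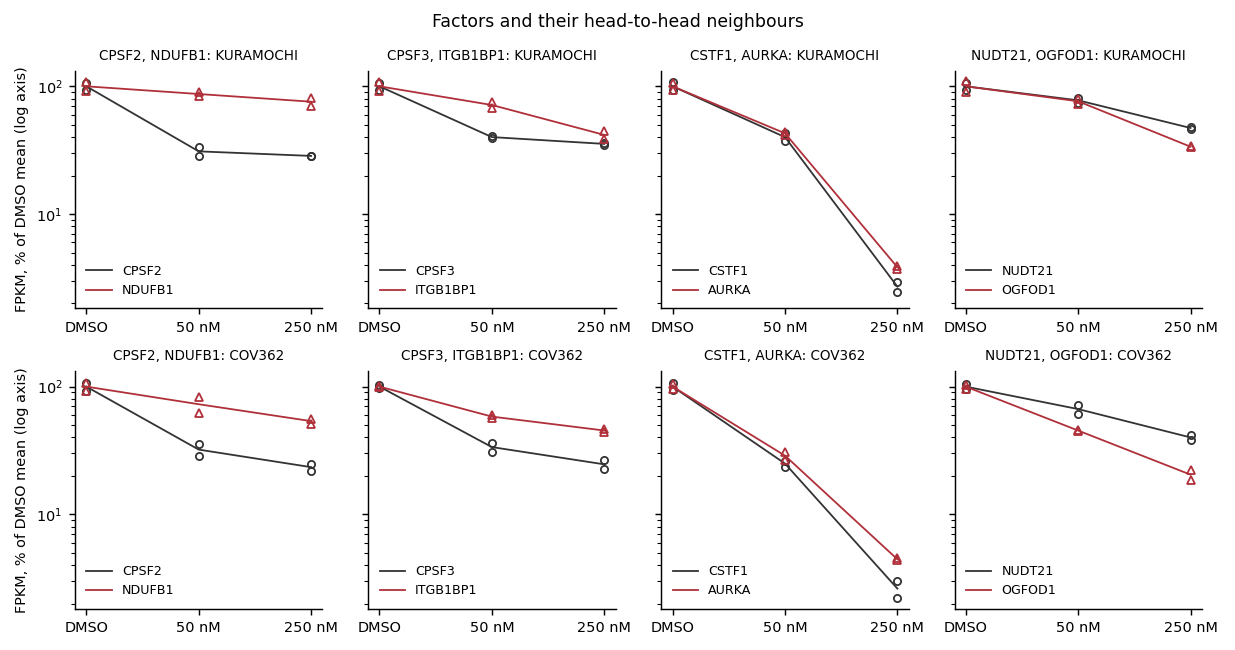
FPKM of 4 factors (black circles) and of their head-to-head neighbours (red triangles) as a percentage of the DMSO mean of the line, on a log axis; points are libraries, lines join means of 2, with Ku cells above and Cov cells below. Both CSTF1 and AURKA drop steeply, CSTF1 to 2.71% and 2.63% and AURKA to 3.84% and 4.45% at 250 nM, while CPSF2 and CPSF3 lie below NDUFB1 and ITGB1BP1 and NUDT21 lies above OGFOD1 at 250 nM, with NUDT21 and OGFOD1 overlapping at 50 nM in Ku cells; without spike-in scaling NUDT21 at 250 nM is above DMSO in both lines, as under equal-median scaling are CPSF3 in both lines and CPSF2 in Ku cells.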

How the data were processed

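The authors deposited 1 table of FPKM per cell line, each with 23713 rows, 92 of them ERCC spike-ins. Stranded poly(A) libraries were sequenced, aligned to hg19 with HiSat and quantified with cuffquant and cuffnorm, and the FPKM were scaled to the spike-ins. Versions, annotation and depth were not given in the sources used here. The scaling was taken as deposited, and the median spike-in of each library lay within 0.0451 log2 units of the DMSO mean of its line. Groups came from the labels. FPKM are no counts, so limma 3.58.1 (R 4.3.3) was fitted to log2(FPKM + 1) of active genes, 3 groups of 2 libraries per line, eBayes with trend, and checked on simulated data. Because the tables were normalized separately, the lines were not compared. The alternatives were other pseudocounts, minima, scalings, thresholds and fits, and each library left out. The 10 genes, the other lists, the tests and the alternatives were chosen with earlier results of these data known. Named genes were the 10, the 28 others, the markers and the 3 active genes nearest to the factor with the largest and with the smallest mean fall. For 1 of the 28, counted in the totals, values are not reported here. Head-to-head neighbours were added after values were seen. Gene models are GENCODE lifted to GRCh37, matched for 84.3% of active genes. Figures were drawn with matplotlib 3.10.9.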

Additional observations from a re-analysis of the deposited data

How the results depend on the processing

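Scaling changed the counts of factors called lower in all 6 comparisons. With libraries scaled to an equal median FPKM, the factors called lower numbered 1 of 10 at 50 nM, 4 at 250 nM and 3 between the doses in Ku cells, and 0, 3 and 2 in Cov cells. The same comparisons had 78, 1683 and 973 of 14251 active genes called lower in Ku, and 19, 1619 and 751 in Cov cells. Of the 28 other 3′ end genes 1 and 8 were called lower at 50 and 250 nM in Ku cells, and 1 and 12 in Cov cells. With median-of-ratios scaling the factors numbered 2, 4 and 3 in Ku cells and 1 and 3 at the 2 doses against DMSO in Cov cells, and the other genes 3 and 14 in Ku and 1 and 16 in Cov cells. Active genes called lower then numbered 356, 2748 and 1642 of 14251 in Ku, and 81 and 2694 in Cov cells. Log2 fold changes of these factors turned upward under equal-median scaling at 250 nM in Ku cells: CPSF1 to 1.02, CPSF2 to 0.17, CPSF3 to 0.48, CPSF6 to 1.00, CSTF2 to 0.43 and NUDT21 to 0.89, of which CPSF1, CPSF6 and NUDT21 were called higher, as they were in Cov cells. In Cov cells CPSF1 became 1.27, CPSF3 0.051, CPSF6 1.23, CSTF2 0.33, CSTF3 0.37 and NUDT21 0.74. At 50 nM in Cov cells CSTF2 became 0.15, CSTF3 0.11 and CLP1 0.072, and of values not called on the spike-in scale CPSF1 became 0.67 and NUDT21 0.63, and in Ku cells NUDT21 0.34, CLP1 0.25 and CSTF2 0.10. Between the doses in Ku cells CPSF1 became 0.29, CPSF2 1.10, CPSF3 1.06, CPSF6 0.13, CSTF2 0.32, CSTF3 0.77 and NUDT21 0.55, with CPSF2, CPSF3 and CSTF3 called higher, and in Cov cells, not called, CPSF1 0.60, CPSF3 0.40, CPSF2 0.39, CSTF3 0.26, CSTF2 0.18 and NUDT21 0.12. Under median-of-ratios scaling, CPSF1, CPSF6 and NUDT21 became 0.50, 0.48 and 0.37 at 250 nM in Ku and 0.81, 0.78 and 0.29 in Cov cells, and between the doses in Ku cells CPSF2, CPSF3, CSTF3 and NUDT21 became 0.74, 0.69, 0.40 and 0.18, the first 2 called higher. Not called, at 50 nM NUDT21 and CLP1 became 0.19 and 0.11 in Ku cells and CPSF1 and NUDT21 0.48 and 0.44 in Cov cells, and between the doses in Cov cells CPSF1, CPSF2 and CPSF3 became 0.33, 0.13 and 0.13. CPSF6 in Cov cells was called higher at both doses under both scalings (1.41 and 1.22 at 50 nM). The log2 change of PCF11 over CLP1 in Cov cells at 250 nM became -0.0923 with 1 added to each FPKM. With 0.1 in place of 1 added to each FPKM, chosen after seeing the data, the distance of CSTF1 and AURKA rose from 0.147 to 0.81. By construction these scalings remove the general fall that the spike-ins record.

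Of the Ku calls at 50 nM, 0 factors and 0 other genes were left with no minimum FPKM and with only the 2 groups compared, which pools fewer libraries. Over all genes tested, 3 of 23621 were called lower with no minimum and 9 of 14251 with only the 2 groups. Without a minimum, 4 factors were called between the doses in Ku cells, beside 1901 of 23621 genes. With a log2 fold change beyond 1, 4 factors were called there and 15 other genes at 50 nM in Cov cells, beside 3598 and 5054 of 14251 active genes. At an adjusted p under 0.05, 17 other genes were called at 50 nM in Ku cells and 7 factors between the doses in Cov cells. Active genes called lower there numbered 5734 and 5909 of 14251. With 1 library left out, the factors called lower ranged in Ku cells from 0 to 0 at 50 nM, 9 to 10 at 250 nM and 2 to 7 between the doses, and in Cov cells from 5 to 8, 9 to 10 and 3 to 5. The other genes ranged from 0 to 2 and 22 to 27 in Ku, and from 12 to 25 and 28 to 28 in Cov cells. A group left with 1 library was assumed to vary like the others. Calls of lower values over all active genes became fewer in every such fit in Ku cells. In Cov cells they became fewer at 50 nM in every such fit. At 250 nM and between the doses they rose in some Cov fits without a 50 nM library and fell in the rest. No loss of calls is therefore read as particular to the listed genes. With the replicate number as a block, 4 other genes were called at 50 nM in Ku cells and 2 factors between the doses in Cov cells, and PCF11 in Ku and CSTF3 in Cov cells at 50 nM missed the call. Beside the first 2 counts, 989 and 1130 of 14251 active genes were called lower. Across genes, the deviations of samples with the same number were hardly correlated (correlations from -0.0703 to 0.0282). A correlation across genes does not register a shift shared by all genes of a library, so it cannot decide whether the numbers pair the samples. All 60 log2 fold changes of the factors kept direction and call with the minimum on condition means, and 58 of 60 with a pseudocount of 0.1 and without the trend. The cause of these changes was not tested, and the unknown depth limits the precision of values below 1 FPKM.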
